A study of Mus musculus with 24 samples.

Results

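The serine/arginine-rich (SR) protein genes and the heterogeneous nuclear ribonucleoprotein (hnRNP) genes of mouse fibroblasts were followed while spermidine was given back to cells that the submitters describe as depleted of polyamines. Polyamines were not measured here. Members were all gene symbols of the array annotation that begin with Srsf and a digit or with Hnrnp, together with Tra2a and Tra2b, without pseudogene symbols. The annotation holds 32 such symbols. Of these, 29 had a probe set of their own and were measured among 19938 genes: 10 Srsf genes, 2 Tra2 genes and 17 hnRNP genes. Hnrnpa1, Hnrnpa3 and Hnrnph3 lie only on probe sets shared with other symbols and are named without values.

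RNA came from NIH3T3, a mouse fibroblast line established from embryos, and was hybridised to Affymetrix MoGene 1.0 ST arrays. All cells had been held for 96 h in 1 mM difluoromethylornithine (DFMO), which blocks ornithine decarboxylase and so lowers putrescine and spermidine. Spermidine was then added to 10 µM with 1 mM aminoguanidine, which blocks serum amine oxidases, and cells were collected at 7 later times, 30, 60 and 120 min and then each 120 min to 600 min, beside the 0 min cells taken before it. There were 3 biological replicates at each of the 8 times, 24 arrays in all. Whether aminoguanidine was also given at 0 min is not stated, and no array is labelled as a time-matched culture kept in DFMO alone, so time in culture and spermidine cannot be told apart.

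SR proteins bind exonic enhancers through an RNA recognition motif and recruit the spliceosome through a domain rich in arginine and serine, and their activity depends on phosphorylation of that domain. The hnRNP proteins coat nascent transcripts, and many of them silence nearby splice sites, so that the balance between both families shapes exon choice. Many SR and hnRNP genes also regulate their own RNA through exons whose inclusion sends the transcript to nonsense-mediated decay. A whole-gene probe set sums such isoforms and does not show which of them changed.

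The deposited values are log2 intensities, so a difference of 1 is a doubling, and all changes below are log2 differences, later time minus earlier time. Arrays were scaled to a common distribution, so a change is relative to the other genes of the array. A smaller share of cells holding an RNA cannot be told apart from less of that RNA per cell. A gene was called when its Benjamini-Hochberg adjusted p from limma, over all 19938 genes, was under 0.05. The median standard error of a member at 600 min was 0.0575. Mean values over the 24 arrays ran from 7.85 to 12.38 in 28 members, where at least 82.13% of genes lay lower, while Srsf12 averaged 3.80, below the array medians of 4.40 to 4.45. Levels of different probe sets do not rank the genes by RNA amount. The 12 fibroblast markers had a median of 10.52 (range 6.04 to 12.72), against medians of 3.80 to 4.20 for the lists of 5 other cell types, in which Krt14 was the highest at 7.71.

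Replicate 3 at 120 min and replicate 3 at 240 min stood apart from the other arrays of their times. On the first principal component, which held 63.1% of the variance, the 120 min array lay at 2.61, against -12.18 and -12.23 for its partners. The 240 min array lay at -13.23, against 2.07 and 1.49. The array labelled 120 min thus lay beside the other 240 min arrays, and the array labelled 240 min beside the other 120 min arrays. Whether the labels of the 2 arrays were exchanged was not tested. These 2 arrays kept their labelled times, and most results that rest on them are given with and without them. Since they were picked for lying apart, p-values without them may be too small. An effect of replicate number had been removed before deposit, so p-values are somewhat too small, and a fit with replicate number as a block is given wherever it changes a call.

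No member was called at 30, 60 or 120 min against 0 min in limma, where 0.015%, 0.0251% and 0.471% of all genes were called. At an unadjusted p under 0.05 there were 1, 1 and 4 of the 29 members, against 5.54%, 5.14% and 12.2% of all genes. At 240 min 1 member, Srsf3, was called, as lower, a share near the 3.06% of all genes called, 2.69% lower, and 0 were called with the replicate block; without both arrays that stood apart 3 were called, against 8.34%. At 360 min 13 members (44.8%) were called, 9 higher and 4 lower, against 19% of all genes, 8.47% higher and 10.5% lower. That count was 8 without 0 min replicate 1 or 360 min replicate 1, and 7 without 360 min replicate 2. At 480 min 14 (48.3%) were called, 9 higher and 5 lower, against 24.2% of all genes, 9.73% higher and 14.5% lower. At 600 min 16 (55.2%) were called, 10 higher and 6 lower, against 26.9% of all genes, 11.2% higher and 15.7% lower. With the replicate block, 9 of the 13, all 14 and 14 of the 16 calls were kept, where 16.4%, 21.8% and 24.2% of all genes were called.

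Most members have high values, and high values are called more often on these arrays. Among the 3562 genes with a mean of at least 7.85, the lowest member mean other than that of Srsf12, 40.2%, 51% and 56.4% were called at 360, 480 and 600 min. The members' shares were near those figures. The median change of the members at 600 min was 0.05, against -0.07 in those 3562 genes and 0.01 in all genes. The F-test over all times called 16 members (55.2%), against 30.9% of all genes and 62.4% of the 3562. With the replicate block, where 26.8% of all genes were called, Hnrnpu (0.0532) and Srsf9 (0.0693) were lost. Without both arrays that stood apart 16 members were again called, with Hnrnpu lost (0.0512) and Srsf5 added (0.0134). Leaving out 1 array, Hnrnpu was lost in 2 of 24 fits, without 360 min replicate 1 or 3 (0.0563 and 0.0682). Srsf9 was kept in 15 of 24 fits, with an adjusted p of up to 0.0874 without 600 min replicate 3.

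**Figure D1:**
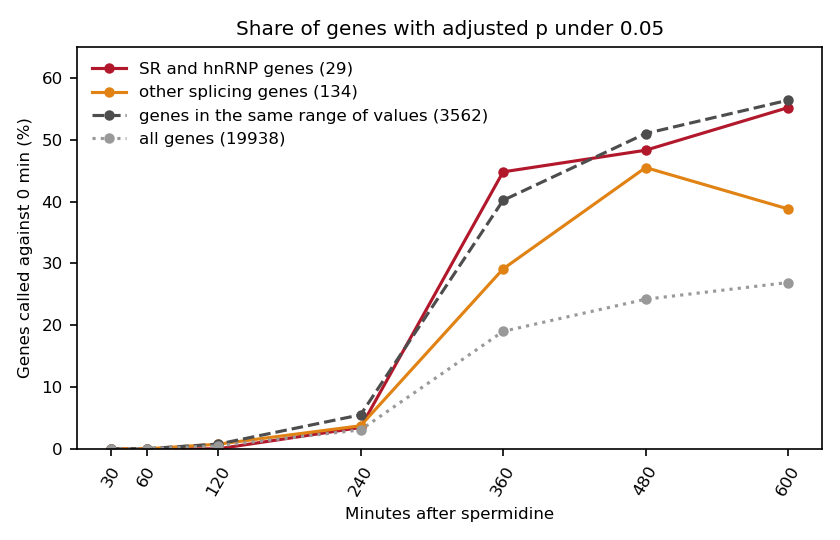
Percent of genes called against 0 min (y axis, adjusted p under 0.05) at each time in minutes (x axis) for the 29 SR and hnRNP genes, 134 other splicing genes, the 3562 genes with values as high as the members and all 19938 genes. The members reach 55.2% at 600 min, near the 56.4% of genes with similarly high values.

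Called members went both ways in the Srsf and the hnRNP genes. At all 3 late times 7 members were higher, Hnrnpab, Hnrnpf, Hnrnph2, Hnrnpl, Hnrnpul2, Srsf4 and Srsf6, and 3 were lower, Hnrnpc, Srsf1 and Tra2a. Of all genes 6.02% were higher and 8.94% lower at all 3, and of the 3562 genes with values as high 13.4% and 20.6%. In all, 19 of the 29 members were called at 1 or more late times and 10 at none, against 32.2% of all genes and 63.7% of the 3562 called at 1 or more. Among the 10 Srsf genes 3 were higher and 2 lower at 600 min. Among the 17 hnRNP genes 7 were higher and 3 lower, and of the 2 Tra2 genes 1 was lower. At that time 11.2% of all genes were higher and 15.7% lower, and of the 3562 genes 727 were higher and 1283 lower.

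**Figure D2:**
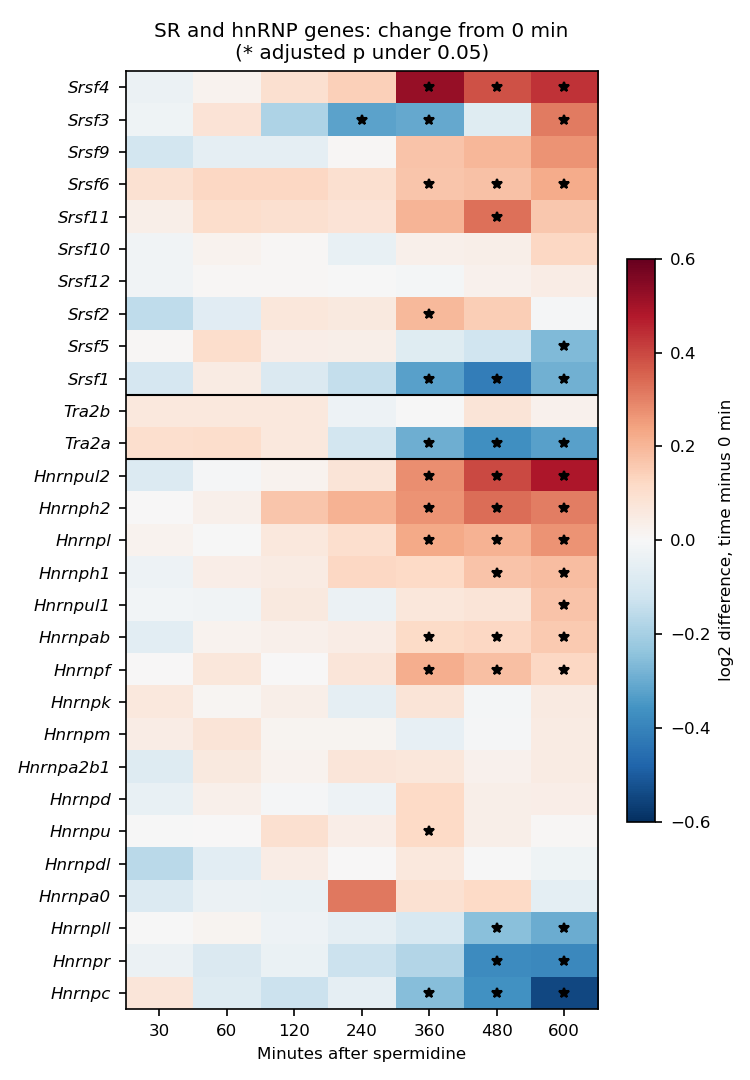
Log2 difference from 0 min (colour, red higher and blue lower) of the 29 measured members (rows, grouped into Srsf, Tra2 and hnRNP genes) at 7 times in minutes (columns), with stars at an adjusted p under 0.05. Apart from Srsf3 at 240 min, stars appear from 360 min on, in both directions.

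Size stayed small. The largest rise at 600 min was 40.0% (Hnrnpul2) and the largest fall 31.4% (Hnrnpc). All 16 called members had 3 arrays at 600 min that did not overlap the 3 at 0 min. This rests on the same values as the calls and is no separate support for them. Over all members 18 of 29 did not overlap, against 37.4% of all genes. The share among the genes with values as high was not counted. Leaving out 1 array at a time, 10 of the 16 calls were kept in all 6 fits: Hnrnpab, Hnrnpc, Hnrnph2, Hnrnpl, Hnrnpll, Hnrnpr, Hnrnpul2, Srsf3, Srsf4 and Srsf6.

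Srsf4, which encodes an SR protein with a long arginine/serine domain, had the largest rise of the Srsf genes. Its values were 8.75, 8.69 and 8.81 at 600 min, against 8.32, 8.30 and 8.33 at 0 min. All 3 late arrays were higher, by 0.44 (SE 0.10, adjusted p 0.00161, limma). The rise peaked at 360 min, where the arrays stood at 8.87, 8.71 and 8.93 and the change was 0.52 (adjusted p 0.000589). Its gene lies at chr4:131873530-131901725 (GRCm38.p6).

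The 240 min value of Srsf4 rests on the arrays that stood apart. At 240 min it read 8.58, 8.64 and, in the array that stood apart, 8.16, so that the change of 0.14 was not called (adjusted p 0.537). Without both such arrays the change was 0.29 (adjusted p 0.00289), and without 240 min replicate 3 alone the adjusted p was 0.0280. At 120 min the values were 8.26, 8.36 and, in the array that stood apart, 8.62.

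Srsf3 encodes the smallest canonical SR protein and regulates its own RNA through a decay exon. In the probe set used, it was the one member called in both directions against 0 min. Of its 3 probe sets, 1 was called at no time, with -0.21 at 240 min and 0.06 at 600 min (F-test adjusted p 0.400). At 240 min the values of the set used were 10.67, 10.74 and 10.82, against 11.06, 11.06 and 11.07 at 0 min. All 3 were lower, by 0.32 (adjusted p 0.0334, and 0.0668 with the replicate block). Leaving out any 1 of the 0 min arrays, or 240 min replicate 1 or 2, also ended this call, with adjusted p between 0.0885 and 0.167. Without both arrays that stood apart the change was -0.36 (adjusted p 0.00102). At 360 min the change was -0.31 (adjusted p 0.00917), and without 360 min replicate 2 it was -0.25 (adjusted p 0.0609).

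By 480 min Srsf3 stood at -0.07 and was not called (adjusted p 0.628). At 600 min it read 11.28, 11.38 and 11.46, above all arrays at 0 min, by 0.31 (SE 0.08, adjusted p 0.00595). A contrast of 600 min with 360 min, chosen after this course was seen, gave 0.62 (SE 0.08, adjusted p 7.5e-05). In that contrast 5 members (17.2%) were called, Srsf3 and Hnrnpul2 higher and Hnrnpll, Hnrnpu and Srsf2 lower. Of all genes 5.97% were called, 2.54% higher and 3.43% lower. The members' share was near the 15% of the 3562 genes with values as high. With the replicate block the 4 other than Srsf3 were lost (0.0572 to 0.0825). Hnrnpll was also lost without any 1 of the 6 arrays compared (0.0600 to 0.143), Hnrnpul2 without any of them but 600 min replicate 3 (0.0671 to 0.143), Srsf2 without any of them but 600 min replicate 1 (0.0769 to 0.123), and Hnrnpu without 360 min replicate 1 or 3 or 600 min replicate 2 or 3 (0.104 to 0.188).

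Srsf1, Srsf2, Srsf5 and Srsf6 took separate courses. Srsf1, which encodes the founding SR protein and a regulator of alternative splicing, translation and cell growth, read 9.04, 9.14 and 9.15 at 600 min, against 9.35, 9.41 and 9.42 at 0 min. All 3 were lower, by 0.29 (adjusted p 0.0316). At 480 min the fall was 0.42 (adjusted p 0.00261), and this call held in all fits that left out 1 array. At 600 min it was lost without 0 min replicate 2 (0.0799), 0 min replicate 3 (0.0884), 600 min replicate 1 (0.105) or 600 min replicate 2 (0.0582). At 360 min it was -0.33 (adjusted p 0.0198), and it was lost without 0 min replicate 2 or 3 or 360 min replicate 1 or 2 (adjusted p 0.0576 to 0.0840).

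Srsf5 read 10.39, 10.32 and 10.48 at 600 min, against 10.51, 10.71 and 10.75 at 0 min. It was lower by 0.26 (adjusted p 0.0449), but 0.0671 with the replicate block, and lost in 4 of the 6 fits without an array: 0 min replicate 2 (0.136), 0 min replicate 3 (0.171), 600 min replicate 1 (0.0923) and 600 min replicate 2 (0.160). Srsf6 read 10.01, 9.92 and 10.08 at 600 min, against 9.77, 9.86 and 9.71 at 0 min, a rise of 0.22 (adjusted p 0.0055). Its earlier calls were weaker. At 360 min (0.17, adjusted p 0.0460) the call was lost with the replicate block (0.0735) and without any compared array but 0 min replicate 2 (0.0984 to 0.190), and at 480 min (0.18, adjusted p 0.0281) without 0 min replicate 1 or 3 or 480 min replicate 1 or 3 (0.0737 to 0.133). Srsf2, whose protein helps define the start of the exon and supports transcription elongation, was higher by 0.19 at 360 min (adjusted p 0.0158) and stood at -0.01 at 600 min (adjusted p 0.949). Without 0 min replicate 1 the 360 min call was lost (0.125).

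Of the other Srsf genes, Srsf11 was called at 480 min alone, at 0.33 (adjusted p 0.0209, and 0.125 without 0 min replicate 1, 0.116 without 480 min replicate 1 and 0.0502 without 480 min replicate 2). Srsf9 had 8.11, 7.98 and 8.11 at 600 min, against 7.57, 7.88 and 7.94 at 0 min, a difference of 0.27 that missed the threshold (adjusted p 0.0598, and 0.0333 without 0 min replicate 3). Srsf10, at 0.13, and Srsf12, at 0.04, were not called. The 95% interval of the 600 min difference reached from -0.01 to 0.26 for Srsf10.

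Tra2a and Tra2b encode SR-like activators related to the fly gene transformer-2. Tra2a read 8.94, 8.90 and 8.85 at 600 min, against 9.27, 9.26 and 9.14 at 0 min, all lower, by 0.32 (SE 0.10, adjusted p 0.0202). At 600 min it was lost without 0 min replicate 1 (0.0675), 0 min replicate 2 (0.0665) or 600 min replicate 3 (0.0684). At 480 min it was lower by 0.37 (adjusted p 0.0101, and 0.0608 without 480 min replicate 2). Its call at 360 min (adjusted p 0.0476) was lost with the replicate block (0.0729) and without any one of the 0 min arrays or 360 min replicate 1 or 2 (0.0537 to 0.171). Its array at 240 min that stood apart, at 9.38, lay above both partners at 8.98 and 8.99. Tra2b was not called at any time, at 0.03 at 600 min (95% interval -0.13 to 0.18).

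**Figure D3:**
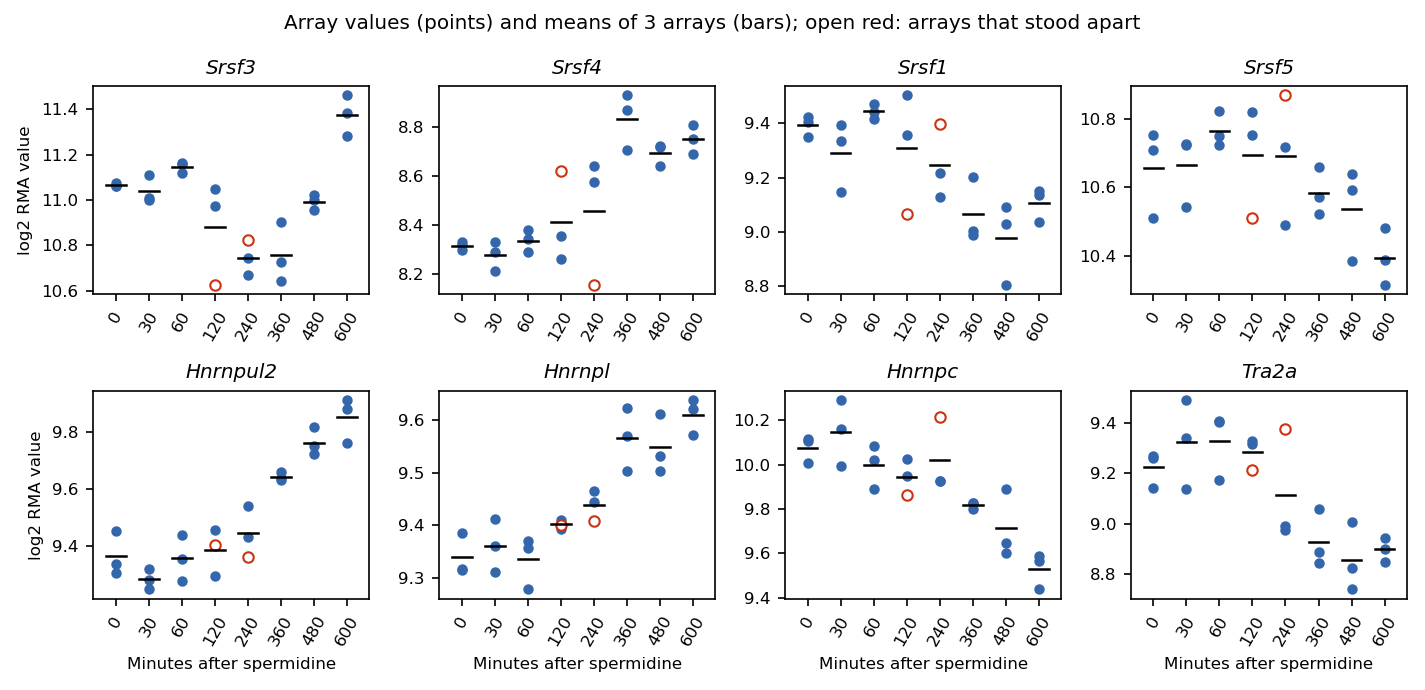
Log2 value of each array (points) and mean of 3 arrays (bars) at each of 8 times in minutes (x axis) for 8 members, with the 2 arrays that stood apart as open red points. Srsf3 lies low at 240 and 360 min and high at 600 min, while Srsf1, Hnrnpc and Tra2a lie low and Srsf4, Hnrnpul2 and Hnrnpl high at the late times.

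Among the hnRNP genes, Hnrnpul2 had the largest rise at 600 min. It encodes a protein related to the scaffold attachment factor Hnrnpu. It read 9.88, 9.91 and 9.76 at 600 min, against 9.30, 9.34 and 9.45 at 0 min, higher by 0.49 (SE 0.06, adjusted p 1.25e-06). The 360 min change was 0.28 and the 480 min one 0.40 (adjusted p 0.00105 and 1.8e-05). Its relative Hnrnpul1 reached 0.17 at 600 min (adjusted p 0.0254) and was lost without 0 min replicate 1 (0.106), 0 min replicate 3 (0.0586), 600 min replicate 1 (0.112) or 600 min replicate 3 (0.0894). Hnrnpu itself was higher by 0.12 at 360 min (adjusted p 0.0105, and 0.0600 without 360 min replicate 3) and stood at 0.01 at 600 min.

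Hnrnpc fell most. It encodes a protein that binds runs of uridine and measures the length of nascent transcripts. It read 9.59, 9.44 and 9.57 at 600 min, against 10.11, 10.10 and 10.01 at 0 min, lower by 0.54 (SE 0.09, adjusted p 5.7e-05). At 480 min it was lower by 0.36 (adjusted p 0.00321), and at 360 min by 0.26 (adjusted p 0.0405, and 0.0637 with the replicate block). The 360 min call was lost without 0 min replicate 1 or 2, or any of the 360 min arrays (0.0837 to 0.121). Hnrnpr, which encodes an RNA-binding protein that also acts in transport and translation, read 8.46, 8.32 and 8.71 at 600 min, against 8.93, 8.90 and 8.83 at 0 min, lower by 0.39 (adjusted p 0.00134).

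The L subfamily went in opposite directions. Hnrnpl, which encodes a protein that binds CA-rich elements, read 9.64, 9.62 and 9.57 at 600 min, against 9.32, 9.39 and 9.31 at 0 min, higher by 0.27 (SE 0.04, adjusted p 2.4e-05). Hnrnpll, whose protein is known from lymphocytes as a regulator of CD45 splicing, read 7.93, 7.95 and 7.93 at 600 min, against 8.27, 8.16 and 8.29 at 0 min, lower by 0.30 (SE 0.06, adjusted p 0.000437). Neither pair of groups overlapped.

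The measured F and H genes, whose proteins bind runs of guanosine, were called higher at 600 min. Hnrnph2 read 9.77, 9.72 and 9.80 at 600 min, against 9.41, 9.48 and 9.49 at 0 min, higher by 0.30 (adjusted p 0.000336). Hnrnph1 was higher by 0.19 (adjusted p 0.0107, and 0.0504 without 0 min replicate 2 or 0.0731 without 600 min replicate 3). At 480 min it was higher by 0.17 (adjusted p 0.0210), lost without 0 min replicate 1 or 2 or 480 min replicate 1 or 3 (0.0636 to 0.0854). Hnrnpf was higher by 0.13 (adjusted p 0.0326, and 0.0556 with the replicate block), with a larger rise of 0.22 at 360 min (adjusted p 0.000941). Its 600 min call was lost without any 1 of the 0 min arrays or 600 min replicates 1 or 3 (0.057 to 0.129). Hnrnph3 was not measured.

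In the A/B and D groups, which shuttle between nucleus and cytoplasm and bind AU-rich or UAG-containing elements, Hnrnpab alone was called at 600 min. It was higher by 0.16 (adjusted p 0.00387). At 360 min its call (0.11, adjusted p 0.0447) was lost with the replicate block (0.0767), without the arrays that stood apart (0.0547), and without any 1 of the 0 min replicates 1 or 3 or the 360 min replicates 1 or 2 (0.0612 to 0.245). At 480 min its call was lost without 0 min replicate 1 or 480 min replicate 3 (0.143 and 0.108). Hnrnpa2b1, Hnrnpd, Hnrnpdl and Hnrnpa0 were not called at any time against 0 min, and neither were Hnrnpk and Hnrnpm, which are outside these groups. At 600 min their differences ran from -0.06 (Hnrnpa0) to 0.05 (Hnrnpk), and the widest 95% interval was that of Hnrnpa0, from -0.33 to 0.21. At 240 min Hnrnpa0 read 8.47, 8.24 and, in the array that stood apart, 8.92. Its SD over 3 arrays was 0.346 there and 0.199 at 600 min.

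**Figure D4:**
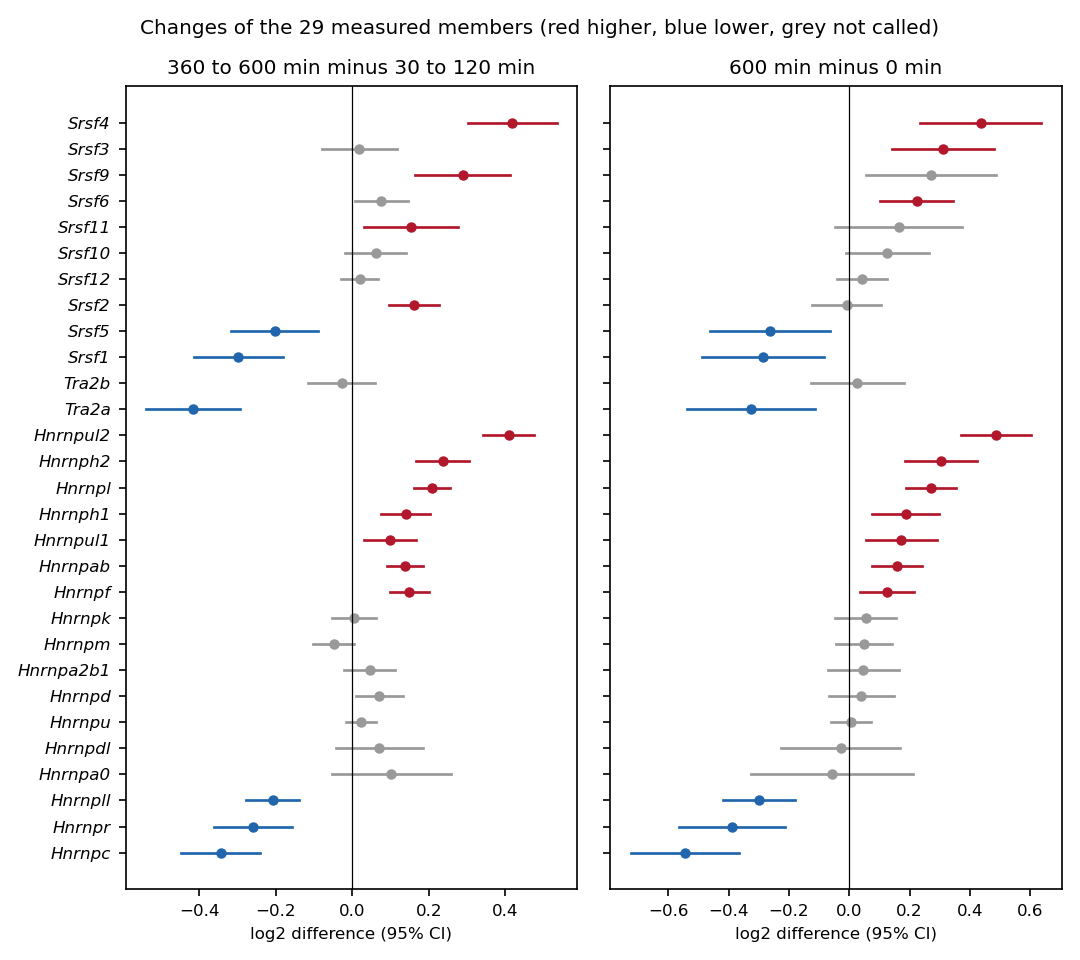
Log2 difference with its 95% confidence interval (x axis) of the 29 measured members (rows), for the mean of 360, 480 and 600 min minus the mean of 30, 60 and 120 min (left) and for 600 min minus 0 min (right), red higher, blue lower and grey not called. The late against early comparison leaves out the 0 min arrays.

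Comparing the 9 arrays at 360 to 600 min with the 9 at 30 to 120 min leaves out the 0 min arrays. It called 17 members, 11 higher and 6 lower, against 35.8% of all genes, 16.4% higher and 19.4% lower, and 68.3% of the 3562 genes. Without both arrays that stood apart 17 were called, 10 higher and 7 lower, and 16 of them were called in both fits. Of the first 17, all but Srsf11 stayed called in each of the 18 fits that left out 1 array. Srsf11 (0.15, adjusted p 0.0468) had 0.0674 with the replicate block and was lost in many of these fits, with 0.0507 to 0.106. Some fits added a call: Hnrnpd was higher without replicate 2 of 30, 480 or 600 min (0.0193 to 0.0495). Srsf6 was higher without replicate 2 of 480 or 600 min (0.0400 and 0.0434), and Hnrnpm lower without 120 min replicate 3 (0.0351). Srsf9, at 0.29 (adjusted p 0.000531), and Srsf2, at 0.16 (adjusted p 0.000304), were called here and not at 600 min against 0 min. Tra2a, at -0.42 (adjusted p 6.7e-06), and Srsf4, at 0.42 (adjusted p 3.6e-06), had the largest differences in each direction. Srsf3, with its fall and rise, averaged out at 0.02.

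The changes of related genes can be set side by side. In the mean of the late arrays minus the mean of the early ones, Srsf1 changed by -0.30 and Srsf9 by 0.29, and Srsf4 by 0.42 and Srsf5 by -0.20. Hnrnpl changed by 0.21 and Hnrnpll by -0.21, Tra2a by -0.42 and Tra2b by -0.03, and Hnrnpul2 by 0.41 and Hnrnpul1 by 0.10. Hnrnph2 changed by 0.24 and Hnrnph1 by 0.14, Srsf6 by 0.08, and Hnrnpd and Hnrnpdl by 0.07 each. These pairs were put together by name with their values known, so no test of the differences is given.

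Of the members, 8 had more than 1 probe set. Positions of the probe sets are not given. In members with 1 set, the set numbers rose with the chromosomes of the genes, taken in alphabetical order. By that order, the sets used for Srsf3, Srsf5, Srsf10, Tra2b, Hnrnpf and Hnrnph2 fell among those of other chromosomes. Each of these genes had another set whose number fell in its place. Whether the sets used read near-identical gene copies was not tested. The 4 probe sets of Hnrnpf were higher at 600 min by 0.12 to 0.14, each with an adjusted p under 0.05 in a fit over 21789 probe sets. For Tra2a the other probe sets fell by 0.50 and 0.68, against the 0.32 used. For Srsf3 a second set gave -0.28 at 240 min and 0.28 at 600 min, close to the set used, but the third gave -0.21 and 0.06 (adjusted p 0.665 and 0.867). The second set of Hnrnph2 was higher by 0.31 at 600 min (adjusted p 0.00232), against 0.30 in the set used. The second set of Srsf5 stood at -0.25 and was not called (adjusted p 0.0743), against -0.26 (adjusted p 0.0461) in the set used. Srsf10, Hnrnpk and Tra2b had no probe set called at 600 min.

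**Figure D5:**
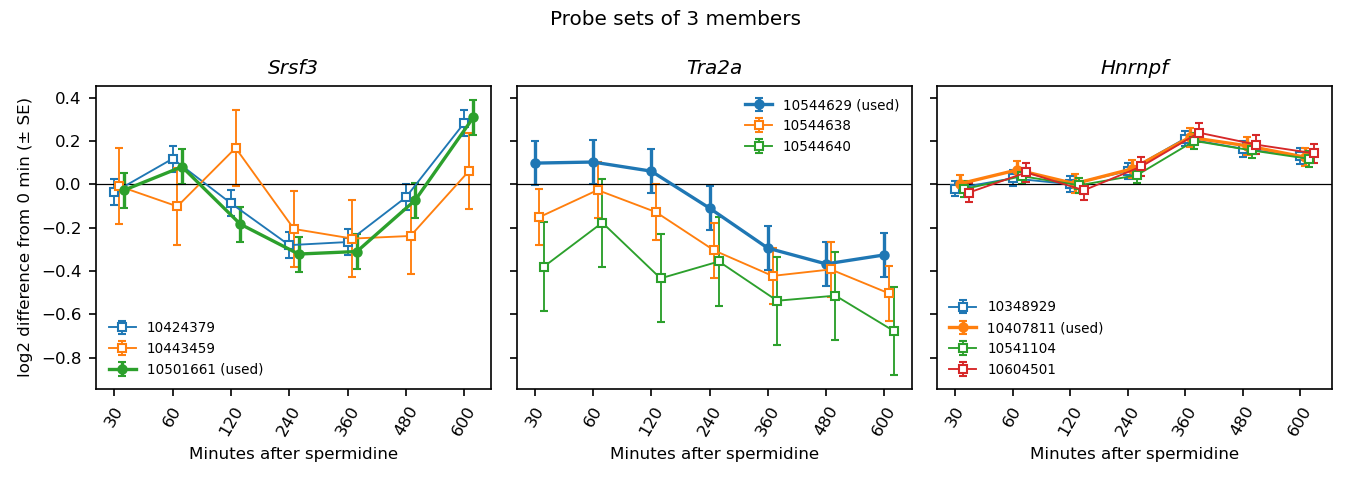
Log2 difference from 0 min with its standard error (y axis) at 7 times in minutes (x axis) for the probe sets of Srsf3, Tra2a and Hnrnpf, the one used in bold. The probe sets of Hnrnpf nearly coincide, while one of Srsf3 has a wider spread.

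Promoter sequence was examined because members moved in both directions. RefSeq windows (GRCm38.p6, 250 bases before to 50 after the start) were found for 27 of the 29 members. Hnrnpul2, called higher at 600 min, and Hnrnpll, called lower, had no window and were not searched. The E2F-type motif TTTCCCGC (either strand) lay in 5 of 27 (18.5%), against 1.24% of 27025 genes and 2.68% of 2950 genes with values as high. Of these 5, Hnrnpul1 was higher, Hnrnpr and Srsf1 lower, and Srsf10 and Tra2b not called at 600 min. The E-box CACGTG lay in 4 of 27 (14.8%), against 8.09% of all genes and 14.64% of those with values as high, and its carriers were Hnrnpf and Hnrnph2, both higher, with Hnrnpd and Hnrnpm, not called. A gene was counted if any of its windows held the motif, and genes differ in their number of windows. The match lay in 1 of 2 windows of Hnrnpr and in 1 of 4 of Hnrnpf. Srsf10, not called, had 3 matches of the E2F-type motif. A match is a sequence match and not a bound site. The stretches below show the motif in capitals for the called members, 5′ to 3′ on the gene's strand.
Hnrnpr, chr4:136311351-136311418: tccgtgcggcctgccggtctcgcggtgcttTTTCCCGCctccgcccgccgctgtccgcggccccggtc
Hnrnpul1, chr7:25754934-25755001: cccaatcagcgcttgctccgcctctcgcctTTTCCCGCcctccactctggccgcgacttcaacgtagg
Srsf1, chr11:88047276-88047343: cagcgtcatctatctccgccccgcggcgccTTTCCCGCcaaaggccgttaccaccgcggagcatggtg
Hnrnpf, chr6:117907695-117907760: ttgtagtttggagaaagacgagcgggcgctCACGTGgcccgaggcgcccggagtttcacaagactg
Hnrnph2, chrX:134601164-134601208: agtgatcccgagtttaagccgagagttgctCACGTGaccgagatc

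The CCAAT box CCAAT lay in 59.3% of members, the GC box GGGCGG in 81.5% and the ETS-type motif CCGGAAG in 18.5%, against 42.78%, 74.24% and 25.19% of genes with values as high. Motifs may overlap one another.

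The other splicing genes were described for the pathway around the members. They are 134 genes of 6 lists: spliceosome core, SR protein kinases and import, SR-related nuclear proteins, other splicing regulators, arginine methyltransferases and nonsense-mediated decay factors. At 360 min 39 (29.1%) were called, 22 higher and 17 lower, and at 480 min 61 (45.5%), 25 higher and 36 lower. At 600 min 52 (38.8%) were called, 16 higher and 36 lower, with a median change of -0.08. The shares at 360, 480 and 600 min lay above the 19%, 24.2% and 26.9% of all genes and below the 40.2%, 51% and 56.4% of the 3562 genes with values as high as the members. None of the 6 lists was cut at that level, and some of their genes lay below it, such as Lsm2 at 6.70 at 0 min. The shares of the lists and of the 3562 are thus of genes with unlike values. At 240 min 5 of the 134 genes (3.73%) were called, 2 higher and 3 lower, near the 3.06% of all genes and 5.5% of the 3562. With arrays centred on their medians 1 was higher and 4 lower. Of the 54 spliceosome core genes 4 rose and 14 fell at 600 min, 33.3% in all. Snrnp200, which encodes the helicase that unwinds U4 from U6, fell by 0.63 (adjusted p 1.45e-07), and Lsm2, of the U6 ring, rose by 0.55 (adjusted p 1e-06).

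Genes whose products modify or move SR and hnRNP proteins, or act in decay, were counted next. At 600 min 26.9% of all genes and 56.4% of the 3562 were called, and at that time none of these 3 lists had a share above that of the 3562. The 3562 genes have means of at least 7.85, while the lists had no such cut. At 0 min Smg9 averaged 5.78 and Prmt6 6.13, so these shares do not compare genes with like values. Of the 10 kinase and import genes 0 rose and 3 fell at 600 min (30%). Clk4, of the kinases that phosphorylate SR proteins, fell by 0.54 (adjusted p 0.00104), and Tnpo3, which imports SR proteins, fell by 0.49 (adjusted p 1.61e-05). The arginine methyltransferase list has 9 genes, among them Wdr77 and Clns1a, which encode partners of Prmt5 and not methyltransferases. Of the 9, 1 rose and 4 fell at 600 min (55.6%), Wdr77 among those that fell, by 0.40 (adjusted p 2.65e-05). At 480 min 1 rose and 6 fell (77.8%, against 24.2% of all genes and 51% of the 3562). At 600 min Prmt7 fell by 1.00 (adjusted p 3.32e-08) and Carm1 rose by 0.32 (adjusted p 0.000626). At 480 min 4 of the 10 nonsense-mediated decay factors fell and 1 rose, Smg5 by 0.18 (adjusted p 0.00279). At 600 min 5 of them (50%) fell and 0 rose, among them Upf2 by 0.75 (adjusted p 2.46e-06), Upf1 by 0.46 (adjusted p 0.00056) and Smg9 by 0.61 (adjusted p 1.32e-06).

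Of the 19 SR-related genes 9 rose and 3 fell at 360 min (63.2%, against 19% of all genes and 40.2% of the 3562), and 4 rose and 3 fell at 600 min (36.8%, against 26.9% and 56.4%). Luc7l3, linked to the U1 particle, was higher by 0.31 at 480 min (adjusted p 0.000236) and by 0.10 at 600 min (adjusted p 0.221), and Rbm25 by 0.51 at 360 min (adjusted p 9.95e-05) and by 0.19 at 600 min (adjusted p 0.0741). Bclaf1 fell by 0.61 and Acin1 rose by 0.60 at 600 min (adjusted p 3.19e-08 and 2.86e-06). Of the 32 other regulators 7 rose and 7 fell at 600 min (43.8%). Sfpq and Nono, which form a paraspeckle heterodimer, rose by 0.54 and 0.34 (adjusted p 6.01e-06 and 4.47e-05), and Taf15 fell by 0.46 (adjusted p 3.44e-05).

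Neighbouring times seldom differed in the members. The contrasts of 60 with 30 min, 120 with 60 min, 240 with 120 min, 480 with 360 min and 600 with 480 min called 0 members, against 0.0451%, 0.411%, 0%, 0.612% and 0.181% of all genes. The 240 with 120 min contrast holds both arrays that stood apart, each lying beside the arrays of the other time. Without both, that contrast called 2 members, and 480 with 360 min and 600 with 480 min called 1 each. The shares of all genes in those fits were not counted. With all arrays, only 360 against 240 min called members, 3 of them (10.3%) and all higher. Of all genes 6.05% were called, 4.25% higher, and of the 3562 genes with values as high 14.2% were called. The 3 members were Srsf4 by 0.38 (adjusted p 0.0242), Hnrnpul2 by 0.20 (0.0369) and Hnrnpf by 0.15 (0.0481). With the replicate block Hnrnpul2 and Hnrnpf were lost (0.0699 and 0.0895). Without 240 min replicate 3 all 3 were lost (0.186, 0.241 and 0.210), as they were without 360 min replicate 3 (0.114, 0.102 and 0.145) and 360 min replicate 1 (0.0742, 0.0976 and 0.152). Hnrnpul2 and Hnrnpf were lost without 240 min replicate 2 (0.0740 and 0.0789) or 360 min replicate 2 (0.0783 and 0.0532), and Hnrnpf without 240 min replicate 1 (0.0650). Without both arrays that stood apart, Srsf4 was 0.23 (adjusted p 0.0379) and the others were not called.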

How the data were processed

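The deposited values are log2 expression values of Affymetrix MoGene 1.0 ST probe sets, made with Partek and RMA (robust multi-array averaging), per the submitters' processing notes. Versions are not given in the sources used here, and the log2 scale was inferred from the values. The array has 35399 probe sets: 21789 are annotated to a single symbol, 11989 to none and 1621 to more, and the set with the highest mean was used per gene. Every member is named, and of each other list up to 6 genes by the F-test. Members and lists were chosen with earlier results of these data known. A limma 3.58.1 model (R 4.3.3) with 1 mean per time used all 24 arrays (16 residual degrees of freedom, 14 with the replicate block), with Benjamini-Hochberg adjustment over 19938 genes, and was tested on simulated data. For each gene the replicate numbers had equal means (largest gap 8.75e-05), so their effect had been removed before deposit. Residual correlations of same-numbered arrays had medians of -0.13 to -0.16. That removal itself pushes these correlations below 0, so they cannot show whether the numbers pair the arrays, and this was not tested. Labels call replicates biological, without naming cultures. Settings tried were the block, leaving out arrays, only the compared arrays, a minimum value of 5, median centring, the mean of probe sets and a variance trend. The 600 against 360 min contrast, the fit over all probe sets, the genes with values as high as the members, and the block without both arrays that stood apart were chosen after seeing the data.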

Additional observations from a re-analysis of the deposited data

How the results depend on the processing

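No result reversed under any setting. Counts of members called late against early, by the F-test and at 360, 480 and 600 min against 0 min stayed within 1.5 times under all settings that kept every array or left out both that stood apart. At 240 against 0 min the count of 1 was 0 with the replicate block, 3 without both arrays that stood apart, 0 with only the arrays compared, 2 at a minimum value of 5, 0 with the mean of probe sets, and 2 without both arrays and with the block. At 240 against 120 min it was 2 without both arrays, with or without the block. At 360 against 240 min the 3 calls became 1 with the block, 1 without both arrays, 0 with only the arrays compared, and 0 without both arrays and with the block. The count of 0 became 1 at 480 against 360 min without both arrays, and 1 at 600 against 480 min without both arrays (also with the block), at a minimum value of 5 and with a variance trend. At 600 against 360 min the 5 calls became 1 with the block. For other splicing genes the 1 call at 120 min (0.746%, against 0.471% of all genes) became 0 with only the arrays compared, and 0 without both arrays and with the block. At 240 min the 5 calls (3.73%, against 3.06% of all genes) became 3 with the block and 19 without both arrays, where 8.34% of all genes were called. They became 0 with only the arrays compared, 9 at a minimum value of 5 and 14 without both arrays and with the block. The causes were not tested.

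Leaving out 1 array gave 0 to 2 members at 240 min, 7 to 10 at 360 min, 10 to 14 at 480 min, 11 to 14 at 600 min, 0 to 1 at 120 against 60 min, 0 to 2 at 360 against 240 min, 1 to 3 at 600 against 360 min, 16 to 19 late against early and 15 to 18 by the F-test. For other splicing genes it gave 0 to 2 at 120 min, 3 to 13 at 240 min (13 without 240 min replicate 3, and 3 without 0 min replicate 1 or 240 min replicate 1 or 2), 30 to 37 at 360 min, 51 to 54 at 480 min and 44 to 53 at 600 min. With the replicate block 14 member calls were lost between times and 2 by the F-test, and 0 were gained. The mean of Srsf12, 3.80, lies below the array medians, so its changes may be hard to measure.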
